A study of Mus musculus with 3 samples.

Results

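The 45 genes described here encode the proteasome, its regulators and the chaperones that help to build it. They were chosen by symbol: protein-coding genes named Psma to Psmg with a number, without the interferon-induced catalytic genes Psmb8, Psmb9 and Psmb10. They are 45 of the 50043 gene IDs in the table. Psmc3ip, a meiotic recombination factor whose name only resembles an ATPase subunit, was left out. By role, the 45 comprised 8 alpha and 8 beta subunits of the 20S core, 6 ATPases and 3 other subunits of the 19S base, 8 subunits of the 19S lid, 4 activators, 1 inhibitor and 7 assembly chaperones. The core, base and lid together make the 26S particle, with 33 listed genes.

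The proteasome degrades proteins that carry ubiquitin chains. The 20S core is a barrel of stacked rings, with outer rings of alpha subunits that gate the entrance and inner rings of beta subunits, of which Psmb5, Psmb6 and Psmb7 cut peptide bonds. The 19S particle caps the core: its lid removes ubiquitin, its base binds ubiquitin and the ATPases unfold the substrate and push it inside. Embryonic stem cells are known for high proteasome activity, and in many cells the transcription factor Nfe2l1 raises subunit genes together when proteasome activity is short.

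RNA was sequenced from KH2 mouse embryonic stem cells carrying an inducible knockout of Pold3, which encodes an accessory subunit of the replicative DNA polymerase delta. There were 3 libraries, 1 each at passages P0, P1 and P2, and the study's question is how transcript levels change with passage. All 3 came from the same inducible line, and no library of an unmodified line was analysed here. The labels do not give the time of induction, the inducing agent, the allele's design, the number of clones or the use of feeder cells, so time in culture, passage and loss of Pold3 cannot be told apart.

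Levels are given as FPKM, reads per kilobase of gene length and per 1000000 reads of the library. Because each passage has 1 library, there was no replicate and no p-value. The brackets after a ratio hold its 95% interval from the reads behind it. That interval covers counting error alone, and it compares libraries rather than passages. Reads lacking molecular identifiers may copy 1 molecule, so the interval can be too narrow even for counting error. The words rose and fell are kept for a log2(FPKM + 1) difference of 0.32 or more, which is a gain of 25% or a loss by the same factor on that scale. A gene was compared where either library had 1 FPKM or more. The scale understates the change of low genes. The P1 and P2 comparisons share the P0 library.

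The libraries held 23213528, 18059914 and 22405670 reads at P0, P1 and P2. Pold3 itself stood at 49.2, 13.0 and 11.6 FPKM. All 7 stem cell markers checked were measured, with summed levels of 2910, 2640 and 2840 FPKM, and single markers differed in both directions. At P2 against P0 Klf4 (229, 116 and 113 FPKM), Esrrb (221, 127 and 118 FPKM) and Sox2 (274, 229 and 212 FPKM) fell, and Nanog (179, 165 and 240 FPKM) rose. Pou5f1, Zfp42 and Dppa5a stayed under the 25% threshold at P2, although Zfp42 (205, 145 and 170 FPKM) fell at P1. Of all genes compared, 27.9% were higher and 12.7% lower by this threshold at P2, and 23.3% and 9.2% at P1. Of 7 fibroblast markers only Col1a1 and Thy1 reached 1 FPKM, Postn was at 0, and the sum of all 7 was 6.69, 16.4 and 18.8 FPKM. The part of these shifts in the proteasome values was not tested. In bulk RNA, fewer cells of a type and less RNA per cell cannot be told apart.

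Proteasome genes were abundant in all 3 libraries and differed little between them. Of the 45, 44 were measured, and 30 of these had at least 100 FPKM in every library. By mean FPKM, 42 exceeded 13.4, the median of the 12854 genes with a mean of at least 1. Their summed level was 7971 FPKM at P0, 7952 at P1 and 8184 at P2, and their reads made up 0.892%, 0.878% and 0.908% of each library. Only Psmb11, the beta subunit that belongs to the thymus, was unmeasured, with 0 reads at P0 and P1 and 2 reads at P2, or 0.0210 FPKM. A count of 0 allows up to 3 reads. The order of the 44 levels was nearly the same in every library (Spearman 0.983 between P1 and P0 and 0.980 between P2 and P0, a description over genes that share a library).

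**Figure D1:**
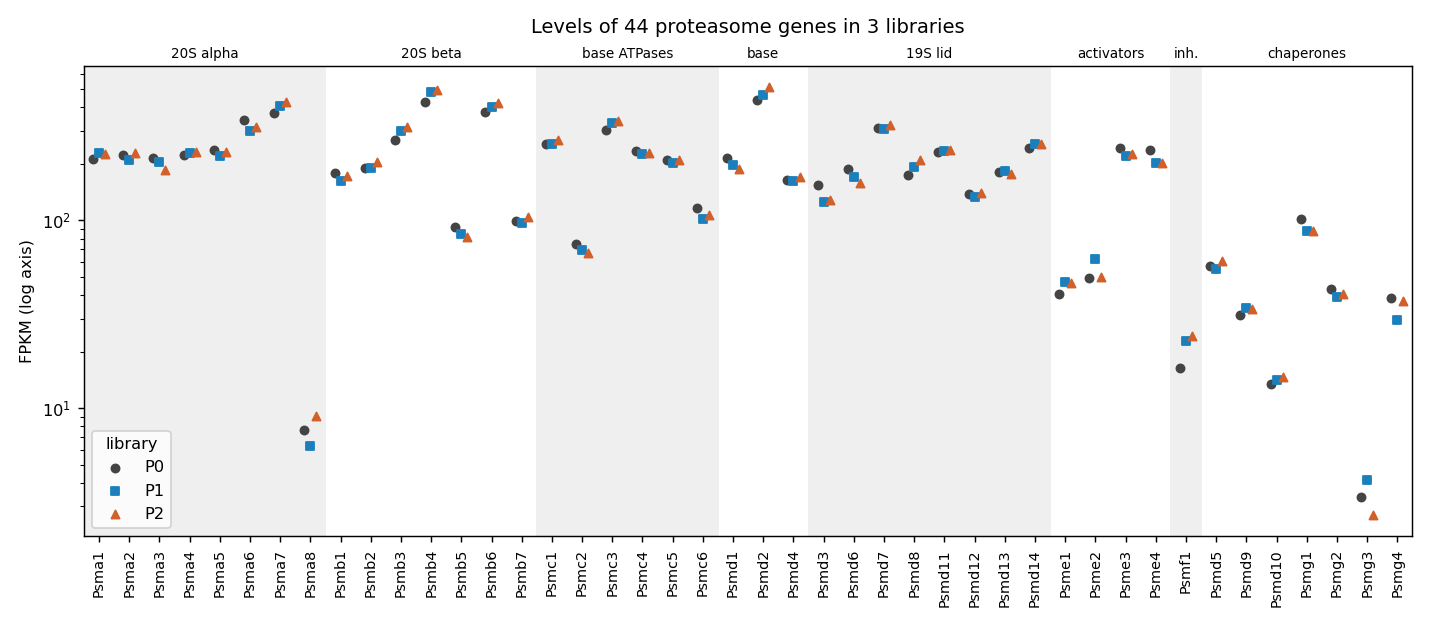
FPKM (log axis) of the 44 measured proteasome genes, ordered by role, with 1 point per library (P0 circles, P1 squares, P2 triangles) and no error bars. Most core and 19S genes sit above 100 FPKM, while Psma8 and Psmg3 lie below 10 FPKM.

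Between P0 and P2, 1 of the 44 measured genes rose, the inhibitor Psmf1, and 0 fell, against 27.9% of all 13472 genes compared that were higher by this rule and 12.7% that were lower. Between P0 and P1, Psmf1 and the activator gene Psme2 rose and the chaperone gene Psmg4 fell, beside 23.3% higher and 9.2% lower of 13288 genes. From P1 to P2 the testis-type alpha gene Psma8 and Psmg4 rose and the chaperone gene Psmg3 fell, beside 11.1% higher and 8.3% lower of 13585 genes. After quantile normalization, a scaling that forces equal distributions, the background splits became 19.2% higher and 21.9% lower for P2 against P0 and 15.9% and 17.0% for P1 against P0. No gene of the 44 differed by 2-fold, where 7.88% of all genes did for P2 against P0, 4.67% for P1 against P0 and 1.66% for P2 against P1. Members within the 25% threshold made up 97.7% for P2 against P0, 93.2% for P1 against P0 and 93.2% for P2 against P1. For genes with a mean of 50 to 500 FPKM the shares were 74.7%, 82.9% and 93.3%. From P1 to P2 the members thus stayed within it about as often as genes of that level.

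Over the 44 genes the median log2 difference from P0 was -0.02 for P1 and 0.03 for P2, where the medians of all genes were 0.06 and 0.07. Median-of-ratios scaling turned the P2 median to -0.02. From P1 to P2 the members' median was 0.05 and that of all genes 0.02. A direction for the whole group is therefore not given.

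Many of the small differences were larger than counting error. At P1 against P0 this held for 65.9% of members. It held for 73.3% of genes with a mean of 50 to 500 FPKM and 61.2% of genes within the members' FPKM range. At P2 against P0 the members' share, 61.4%, lay below both (78.9% and 68.5%). At P2 against P1 it lay between them (58.7% and 46.9%). Whether members exceeded counting error more or less often than other genes thus depended on the genes and libraries compared. At P2 against P0 the interval of the FPKM ratio lay wholly above 1 for 16 members and wholly below 1 for 11, where 39.6% and 25.7% of all genes did so. At P1 against P0 the counts were 12 and 17 (all genes 34.5% and 22.6%). At P2 against P1 they were 17 and 5 (all genes 24.1% and 18.9%). The ratios themselves were close to 1: 42 of 44 members stayed within 20% of their P0 level at P2, and 40 did at P1.

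**Figure D2:**
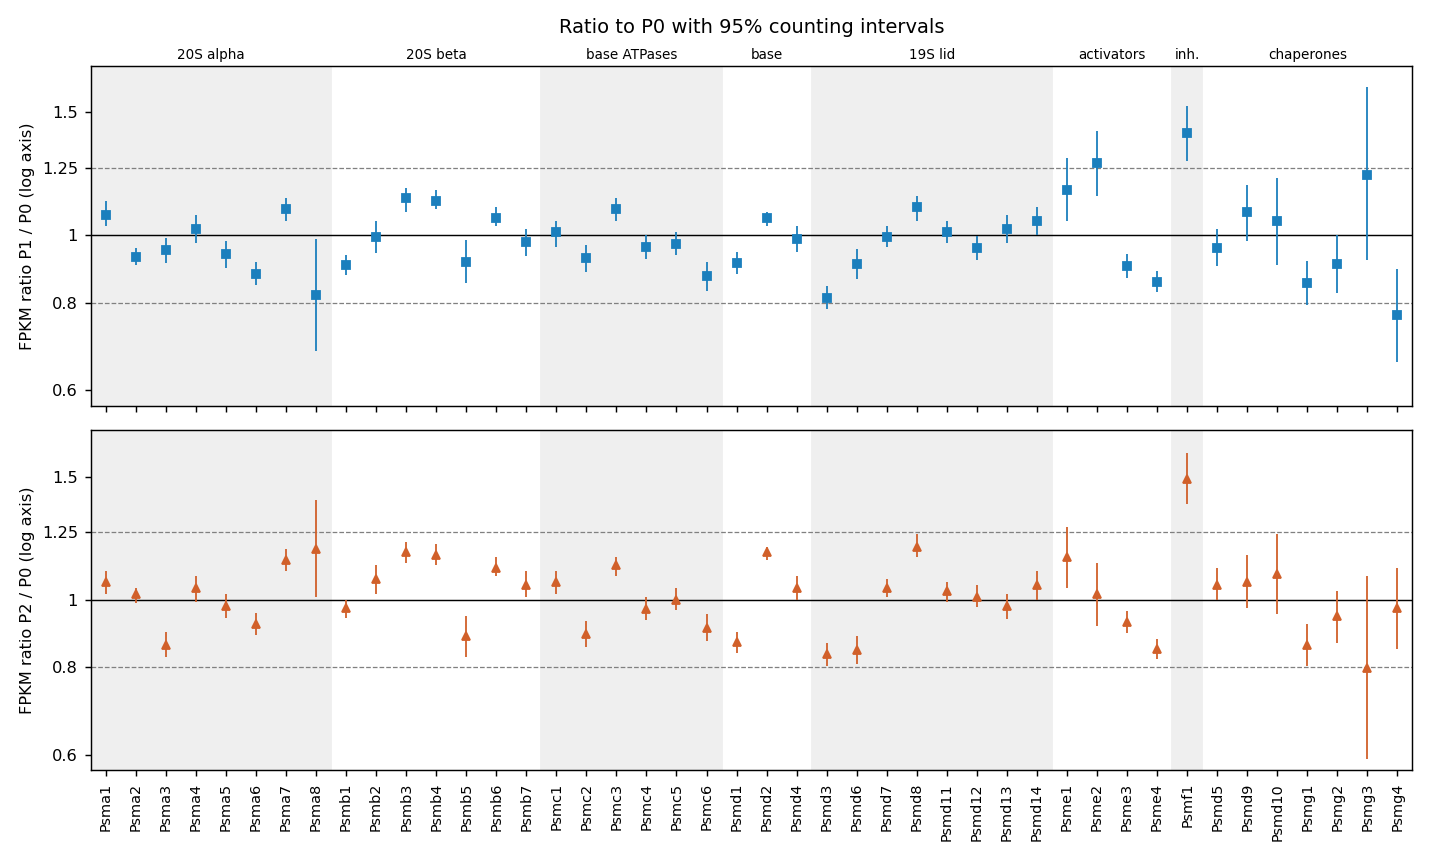
FPKM at P1 (upper panel) and P2 (lower panel) divided by FPKM at P0 on log axes, for 44 genes, with bars for the 95% counting interval and dashed lines at a gain of 25% and at 0.8. Psmf1 lies above the upper line in both panels, at 1.40 and 1.49, and the 26S genes lie between the lines in the lower panel.

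Among the alpha subunits, which form the outer rings and the gate of the core, all 8 were measured and the median difference was -0.08 at P1 and 0.04 at P2 against P0. Psma7 was the highest, with 375, 408 and 429 FPKM, a P2 to P0 ratio of 1.14 (1.10 to 1.18). Psma3 went the other way, with 215, 205 and 186 FPKM and a ratio of 0.862 (0.828 to 0.898). These differences exceeded counting error and stayed under the 25% threshold. The remaining constitutive genes Psma1, Psma2, Psma4, Psma5 and Psma6 lay between 209 and 341 FPKM in every library.

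Psma8 encodes an alpha subunit that replaces Psma7 in the testis. It was the lowest alpha gene, at 7.63, 6.28 and 9.04 FPKM from 300, 192 and 343 reads. Its log2 difference from P1 to P2 was 0.46, a ratio of 1.44 (1.20 to 1.73), and with FPKM as deposited this was the 1 call within the 26S particle in any comparison. Against P0 the P2 ratio was 1.18 (1.01 to 1.39). With quantile normalization Psma8 also passed the threshold lower at P1 against P0, at -0.38.

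The beta subunits line the degradation chamber. Their summed level was 1633, 1718 and 1793 FPKM at P0, P1 and P2, and 5 of 7 measured genes were higher at P2 than at P0 beyond counting error (39.6% of all genes) and 1, Psmb5, was lower (25.7%), none past the 25% threshold. Psmb4, a structural subunit and the highest beta gene, stood at 427, 480 and 495 FPKM, with a P2 to P0 ratio of 1.16 (1.12 to 1.20). Psmb3, also structural, stood at 267, 300 and 313 FPKM, with a ratio of 1.17 (1.13 to 1.21). Psmb1 and Psmb2 ranged from 162 to 204 FPKM across the libraries.

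The 3 catalytic genes differed in direction. Psmb6, the caspase-like subunit, measured 380, 404 and 423 FPKM, with a P2 to P0 ratio of 1.11 (1.08 to 1.15). Psmb7, the trypsin-like subunit, measured 98.9, 96.8 and 104 FPKM (ratio 1.05, 1.01 to 1.10). Psmb5, the chymotrypsin-like subunit and target of bortezomib, measured 92.3, 84.7 and 81.8 FPKM (ratio 0.886, 0.828 to 0.947). Psmb6 was thus slightly higher and Psmb5 slightly lower, neither past the 25% threshold, and Psmb6 stood 4.11, 4.78 and 5.17 times as high as Psmb5 at P0, P1 and P2.

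Psmb5 may share reads with a processed pseudogene, Gm3375 on chromosome 7, which matches the Psmb5 transcript (chromosome 14) at 98.9% over 796 bases. The alignment has 9 differing columns, and its longest identical run is 194 bases, so short reads there could come from either locus. The counting of reads with several matches, not given in the sources used here, could shift both values. The stretch below shows 3 of the differences, in capitals, within 90 bases of the Psmb5 coding sequence and of its copy (GENCODE release M21).
Psmb5: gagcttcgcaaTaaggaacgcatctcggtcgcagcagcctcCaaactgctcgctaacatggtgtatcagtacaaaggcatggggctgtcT
Gm3375: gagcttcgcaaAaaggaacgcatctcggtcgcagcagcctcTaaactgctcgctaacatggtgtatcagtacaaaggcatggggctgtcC

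Gm3375 was listed at 35.2, 35.5 and 35.1 FPKM, from 651, 511 and 626 reads, and held 25.9%, 27.7% and 28.2% of the reads of both loci. Its own P2 to P0 ratio was 0.996 (0.891 to 1.11). With both loci added, Psmb5 became 125, 117 and 114 FPKM, and the ratio became 0.914 (0.863 to 0.968). Psmb6 was then 3.05, 3.45 and 3.72 times as high. The lower value at P2 was therefore present with and without the copy. Copies at 90% identity or more over at least 200 bases were found for 14 members, 28 copies in all. Gm3375 was the only one of the 22 in the table to reach 1 FPKM, and 16 were at 0 in every library.

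Exons of 11 members overlap those of another gene. Where the strands are opposite, the reads cannot be separated without a stated strand setting. Psmb5, Psmd1 and Psmg3 overlap a gene on the same strand (Mir686, Gm21972 and Gm26938), where no strand setting would help. Each of these same-strand partners was listed at 0 FPKM in every library. The partners with a level above 1 FPKM were Nek6 for Psmb7 (405 shared bases), Sirt3 for Psmd13 (342), Slc39a13 for Psmc3 (215) and Emc9 for Psme1 (14). These partners stood between 4.31 and 9.76 FPKM in the 3 libraries, far below the subunit genes Psmb7, Psmd13 and Psmc3.

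The 6 ATPases form the ring that unfolds substrates, and each occurs once in the particle. They had a median difference of -0.05 at P1 and -0.02 at P2, and 0 of 6 passed the 25% threshold. Psmc3 was the highest at 303, 330 and 337 FPKM (P2 to P0 ratio 1.12, 1.08 to 1.15), and Psmc2 the lowest at 74.8, 69.3 and 66.8 FPKM (0.893, 0.856 to 0.932). The 2 ratios lay on opposite sides of 1, each beyond counting error. Psmc1 gave 254, 256 and 269 FPKM. Psmc4 gave 235, 226 and 228 FPKM and Psmc5 209, 203 and 209 FPKM. Psmc6 gave 117, 102 and 107 FPKM, with a ratio of 0.912 (0.872 to 0.953).

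The scaffold subunits of the base, which dock ubiquitin receptors and deubiquitinases, also differed in direction. Psmd2 was the highest proteasome gene of all by mean level, at 440, 464 and 513 FPKM, a P2 to P0 ratio of 1.17 (1.14 to 1.19). Psmd1, the other large scaffold, stood at 216, 197 and 188 FPKM, a ratio of 0.869 (0.839 to 0.900). Their intervals lay on opposite sides of 1. The ubiquitin receptor Psmd4 measured 164, 162 and 170 FPKM.

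In the lid, 8 of 8 genes stayed under the threshold in every comparison, with a median difference of 0.00 at P1 and 0.03 at P2. Psmd8, a subunit of the horseshoe of the lid, had the second largest difference upward among all 44 genes, with 175, 192 and 210 FPKM and a P2 to P0 ratio of 1.19 (1.15 to 1.24). Psmd3 had the largest log2 difference downward, -0.26, with 154, 125 and 128 FPKM and a ratio of 0.835 (0.805 to 0.866). Psmd6 measured 187, 170 and 158 FPKM (0.847, 0.808 to 0.888), and by log2 difference the chaperone gene Psmg3 lay between these lid genes. Psmd3 was already at its lower level at P1, whereas Psmd6 was lower again at P2. At P1 the log2 difference of Psmd3, -0.29, passed the threshold only under median-of-ratios scaling.

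Psmd7 was the highest lid gene, at 309, 307 and 321 FPKM, and Psmd12 measured 138, 133 and 140 FPKM. Psmd14, the deubiquitinase that removes ubiquitin chains at the entrance, was at 242, 255 and 254 FPKM. Psmd11, of interest because it has been tied to proteasome assembly in stem cells, gave 231, 234 and 238 FPKM, with a P2 to P0 ratio of 1.03 (0.991 to 1.06). Psmd13 gave 180, 184 and 177 FPKM.

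The inhibitor gene Psmf1, on chromosome 2, showed the largest difference from P0 of all members measured. It encodes PI31, first described as an inhibitor of the isolated core and later as an adapter for proteasome transport. Psmf1 rose from 16.3 FPKM (934 reads at P0) to 22.8 (1015 reads at P1) and 24.3 (1341 reads at P2). The ratios to P0 were 1.40 (1.28 to 1.53) and 1.49 (1.37 to 1.62), and the log2 differences 0.46 and 0.55. The step from P1 to P2, a ratio of 1.06 (0.981 to 1.16), was within counting error. Under each of 3 other scalings Psmf1 remained past the threshold, at 0.46 or more for P2 against P0. It was also among the least abundant members, 60.9% of genes with a mean of at least 1 FPKM lying below it.

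The activators open the core without using ubiquitin. Psme1 and Psme2 encode the alpha and beta chains of PA28, which interferon induces. Psme1 measured 40.4, 46.9 and 46.5 FPKM (P2 to P0 ratio 1.15, 1.04 to 1.27). Psme2 rose from 49.1 to 62.1 FPKM at P1 and was back at 50.1 at P2, from 701, 690 and 690 reads. Its P1 to P0 ratio was 1.27 (1.14 to 1.41), and the log2 difference of 0.33 became 0.29, under the threshold, with median-of-ratios scaling and with quantile normalization.

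Psme3 and Psme4, the nuclear activators PA28 gamma and PA200, were the more abundant pair as deposited. Psme3 stood at 242, 219 and 225 FPKM (P2 to P0 ratio 0.929, 0.895 to 0.964) and Psme4 at 236, 202 and 201 FPKM (0.851, 0.823 to 0.880). Both were lower after P0 than at P0, by less than the threshold, while Psme1 was higher.

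The 7 assembly chaperones had median levels of 38.4, 34.0 and 37.3 FPKM, beside 216, 207 and 217 FPKM for the 32 measured 26S genes. The ranges overlapped: Psmg1, with a mean of 92.7 FPKM, exceeded Psmb5 (86.3), Psmc2 (70.3) and Psma8 (7.65). The chaperones' summed level was 289.5, 263.4 and 277.8 FPKM. Psmg1 and Psmg2 work as a pair on the alpha ring. Psmg1, the highest, measured 102, 87.5 and 88.2 FPKM (P2 to P0 ratio 0.862, 0.805 to 0.922) and Psmg2 42.9, 39.1 and 40.6 FPKM. Psmg3 and Psmg4 form a second pair on the same ring. Psmg4 fell from 38.4 to 29.5 FPKM at P1 and rose to 37.3 at P2, from 458, 274 and 430 reads. Psmg3, the lowest measured member, stood at 3.38, 4.14 and 2.70 FPKM from 105, 100 and 81 reads, and its P2 to P0 ratio of 0.799 had an interval of 0.591 to 1.08.

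Within this pair the P1 value differed: it was low for Psmg4 (P1 to P0 ratio 0.769, 0.660 to 0.895) and high for Psmg3 (1.22, 0.921 to 1.63), the latter within counting error. From P1 to P2 Psmg3 fell by 0.47 on the log2 scale, a ratio of 0.653 (0.481 to 0.884). The rise of Psmg4 from P1 to P2, 0.33 on the log2 scale, went under the threshold with quantile normalization. The chaperones of the base, Psmd5, Psmd9 and Psmd10, stayed close to their P0 levels. Psmd5 measured 57.4, 55.1 and 60.6 FPKM, Psmd9 31.5, 34.0 and 33.6 FPKM, and Psmd10, also known as the oncoprotein gankyrin, 13.5, 14.1 and 14.7 FPKM. All 3 intervals for P2 against P0 included 1.

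Core subunits occur in equal numbers in a finished particle, and their transcripts were not equally abundant. Over the 32 measured 26S genes, FPKM ranged 57.6-fold at P0, from Psma8 to Psmd2, and 5.88-fold without Psma8, from Psmc2 to Psmd2. The coefficient of variation was 44.7% at P0, 49.5% at P1 and 51.2% at P2. Without Psma8 and the unmeasured Psmb11 it was 40.4%, 45.5% and 47.4%. Within the particle at P0 it was 27.6% for lid genes and 43.5% for ATPase genes as deposited, and the order turned to 36.1% and 34.3% per length of the principal transcript. Over the 26S genes the log2 difference had a Spearman correlation with mean FPKM of 0.65 for P1 against P0 and 0.47 for P2 against P0, and 0.05 for P2 against P1 (n = 32 genes that share the libraries, given as a description). Over all 44 members it was 0.17, 0.21 and 0.09. Over protein-coding genes with a mean of 50 to 500 FPKM the same values were -0.08 and -0.07 for the comparisons with P0. In these 2 comparisons the log2 difference of the 26S genes also had correlations of -0.36 and -0.34 with length. With GC content they were 0.38 and 0.22. Level, length and GC content were not separated.

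Levels between genes also depend on the gene length that FPKM was divided by. That length was close to the mean of all annotated transcripts of a gene, short fragments included. It was 0.8 times the principal transcript's length or less in 27 of 44 members. The extreme was Psme4, with 1433 bases behind its FPKM against a principal transcript of 6491, so that its 236 FPKM at P0 would be 52.1 per principal length. Psmb7 went from 98.9 to 171 FPKM and Psmd2 from 440 to 219. Psmb6 (370) then became the highest 26S gene at P0, while Psmb5 (89.5) remained the lowest measured beta gene. The coefficient of variation at P0 was 48.3% on this basis. Ratios between libraries are untouched by the choice of length.

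**Figure D3:**
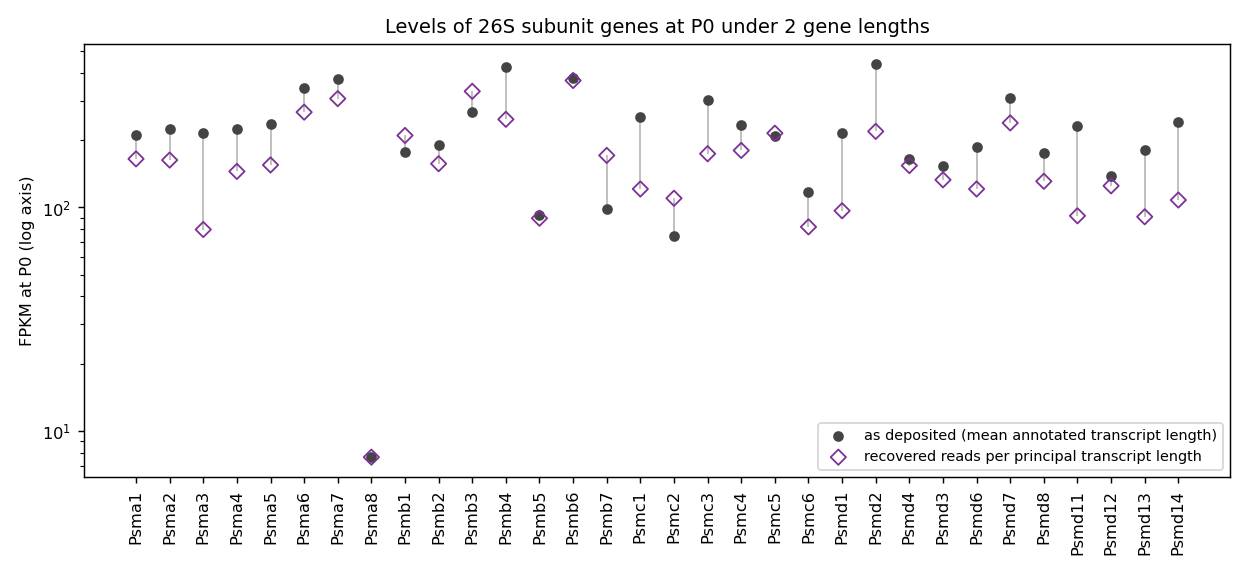
FPKM at P0 (log axis) of the 32 measured 26S genes as deposited (filled circles) and recomputed per length of the principal transcript (open diamonds), joined by a line for each gene. Psmd2 goes from 440 to 219 and Psmb7 goes from 98.9 to 171, so the order of levels between genes is tied to the length used.

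The 26S genes spread less between libraries than genes of similar level, and other complexes also had a low spread. The standard deviation of their log2 differences was 0.12 for P1 against P0 and 0.15 for P2 against P0, compared with 0.31 and 0.39 for genes with a mean of 50 to 500 FPKM and 0.43 and 0.53 for all genes compared. It was 0.08 and 0.08 for the chaperonin TRiC and 0.11 and 0.17 for cytosolic ribosomal protein genes, some of them near the floor of 1 FPKM. All 32 lay within the 25% threshold at P2, where 74.7% of the 2483 genes of 50 to 500 FPKM and 59.5% of all genes did. At a difference of 0.2 or less the shares were 71.9% of 26S genes, 54.2% of genes of similar level and 41.2% of all genes. These are counts over genes in 2 libraries and carry no test.

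**Figure D4:**
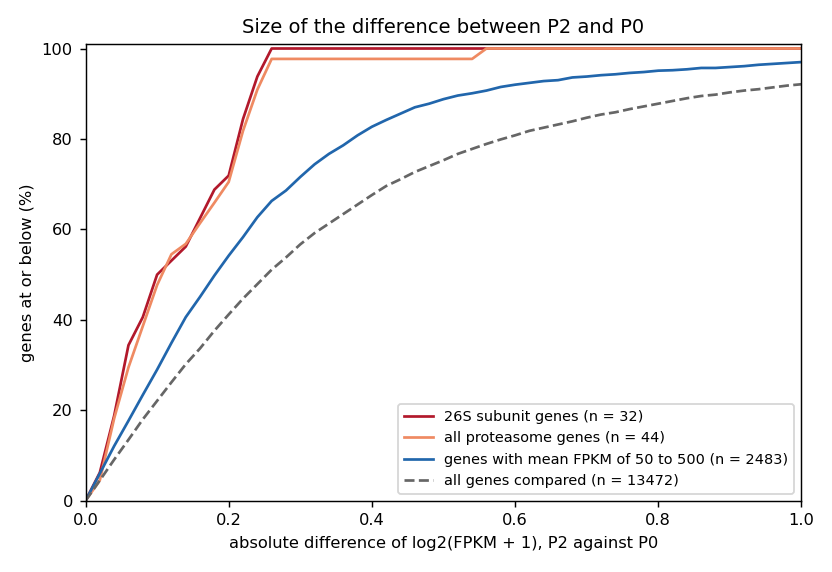
Share of genes (%) whose absolute difference in log2(FPKM + 1) between P2 and P0 is at or below the value on the horizontal axis. The curve of the 26S genes reaches 100% before 0.3, where the curve for genes of 50 to 500 FPKM is at 71.6%.

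Other multi-subunit complexes were set beside it. TRiC, the cytosolic chaperonin that folds actin and tubulin, has 8 genes, and all 8 were lower than at P0 in both later libraries (7 of 8 at P1 with quantile normalization), with medians of -0.16 (P1) and -0.18 (P2). All 8 intervals lay below 1 in both comparisons, where 22.6% of all genes did so at P1 and 25.7% at P2. These genes have many reads, so that even the ratio of 0.972 for Cct8 at P1 (13606 reads) was beyond counting error. None of the 8 passed the 25% threshold except Tcp1 at P1 and Cct2 and Cct6a at P2 with median-of-ratios scaling. The 80 cytosolic ribosomal protein genes had medians of -0.08 at P1 (79 measured) and -0.16 at P2. By the 25% threshold 2 of the 80 rose and 7 fell at P2, where 27.9% of all genes were higher and 12.7% lower. Under quantile normalization the TRiC medians were -0.16 and -0.15 and the ribosomal ones -0.02 and -0.04. The proteasome's 26S medians were -0.02 and 0.05 as deposited, and -0.01 and 0.04 with quantile normalization. Its genes spread to both sides of 0 at P2, with 20 of 32 above it and 12 below, whereas TRiC had 0 of 8 above it. With median-of-ratios scaling the 26S split at P2 was 16 above and 16 below, and TRiC still had 0 above.

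**Figure D5:**
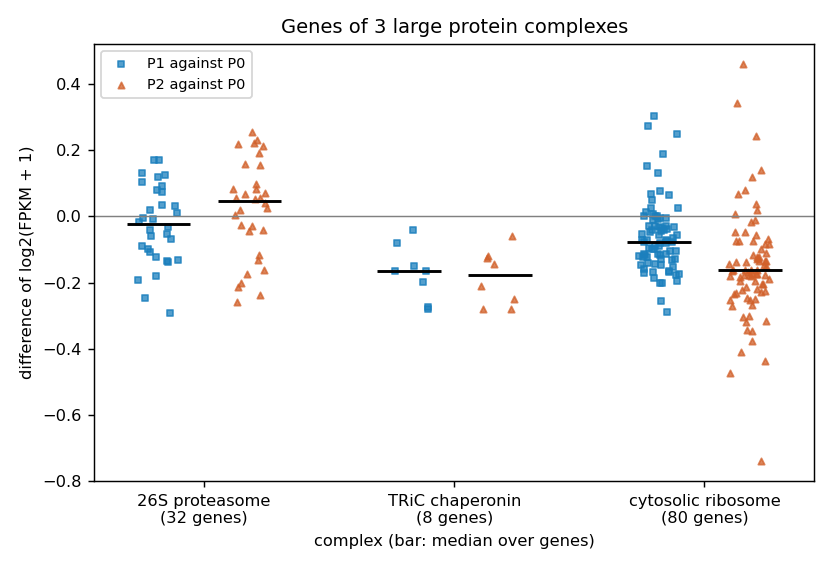
Difference in log2(FPKM + 1) against P0 for each gene of 3 complexes, with squares for P1, triangles for P2 and a bar at the median. The 26S genes lie on both sides of 0, and all 8 TRiC genes lie below it in both libraries as deposited (7 of 8 at P1 with quantile normalization).

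Of the genes that act with the proteasome without a Psm symbol, 11 were found. At P1 against P0 1 rose and 2 fell (median 0.02), where 23.3% of all genes were higher and 9.2% lower. At P2 1 rose and 1 fell (median 0.08), where 27.9% and 12.7% did. Zfand2a, a stress-induced partner of the 19S particle, rose from 15.7 to 24.2 and 28.8 FPKM, a P2 to P0 ratio of 1.83 (1.65 to 2.04). The proteasome-bound ubiquitin ligase Ube3c fell from 52.7 to 41.4 and 41.2 FPKM. The ubiquitin receptor Adrm1 measured 121, 129 and 146 FPKM, and Pomp, the chaperone of the half-built core, 109, 136 and 128 FPKM.

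Among 9 measured regulators of proteasome gene transcription, 1 rose and 0 fell at P1 (median -0.09), and 2 rose and 0 fell at P2 (median -0.03). Over all genes 23.3% were higher and 9.2% lower at P1, and 27.9% and 12.7% at P2. With 9 genes the counts are too small to be told apart from these shares. Nfe2l1 itself stood at 105, 90.3 and 103 FPKM, and the related factor Nfe2l2 at 31.1, 29.0 and 30.4 FPKM. Ddi2, the protease that activates Nfe2l1, rose from 15.4 at P0 to 19.7 FPKM at P2 (16.3 at P1), and the partner factor Mafk from 4.32 at P0 to 7.49 FPKM at P2 (6.66 at P1).

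The interferon-induced catalytic genes, which replace Psmb6, Psmb5 and Psmb7 in the immunoproteasome, were low except for Psmb10. Psmb9, the counterpart of Psmb6, rose from 2.37 FPKM (61 reads) to 3.95 (79 reads) and 5.32 (132 reads), a P2 to P0 ratio of 2.24 (1.64 to 3.09). Psmb8, the counterpart of Psmb5, stayed under 1 FPKM, at 0.119, 0.0764 and 0.246 from 4, 2 and 8 reads. Psmb10 measured 56.0, 65.7 and 52.1 FPKM. At P2 Psmb6 was thus at 423 FPKM and its inducible counterpart at 5.32. The look-alike Psmc3ip measured 29.5, 35.0 and 45.3 FPKM and rose between P0 and P2 (ratio 1.53, 1.39 to 1.69) and is not counted above.

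Promoter windows of 300 bases, from 250 before to 50 after the annotated start, were found for 37 members in RefSeq's sequences (GRCm38.p6), 40 windows in all. The core of the antioxidant response element, TGACNNNGC, which factors of the Nfe2l family bind, was searched on both strands. It occurred in 6 of 40 windows (15.0%), beside 12.4% of all 32851 windows and 14.2% of windows of genes with a mean of at least 1 FPKM. The 6 genes were Psmb5, Psmb6, Psmc6, Psmd9, Psmd12 and Psme4. The CCAAT box CCAAT was in 32.5% of members' windows (37.4% of all) and the Sp1 box GGGCGG in 57.5% (35.7% of all, 63.4% for genes of at least 1 FPKM).

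Psmb5 and Psmb6 are shown because these catalytic genes hold the element close to the start, 47 and 9 bases before it, and differed in direction between P0 and P2. Psmf1 is shown as the 1 gene that rose at P2, and its window holds none of the 3 motifs. The windows are chr14:54617946-54618245 (minus strand) for Psmb5, chr11:70525107-70525406 (plus strand) for Psmb6 and chr2:151741261-151741560 (minus strand) for Psmf1. Capitals mark the element.
Psmb5: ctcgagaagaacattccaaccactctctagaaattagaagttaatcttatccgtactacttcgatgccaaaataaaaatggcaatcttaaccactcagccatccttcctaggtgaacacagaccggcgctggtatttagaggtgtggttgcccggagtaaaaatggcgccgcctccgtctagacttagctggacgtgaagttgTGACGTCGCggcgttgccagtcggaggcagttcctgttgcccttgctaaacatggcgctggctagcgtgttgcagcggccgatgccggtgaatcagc
Psmb6: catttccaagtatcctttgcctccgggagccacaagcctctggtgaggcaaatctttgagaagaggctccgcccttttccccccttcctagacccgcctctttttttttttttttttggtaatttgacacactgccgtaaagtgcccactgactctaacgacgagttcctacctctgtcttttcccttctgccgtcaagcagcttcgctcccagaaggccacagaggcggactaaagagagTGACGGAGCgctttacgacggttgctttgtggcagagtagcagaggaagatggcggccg
Psmf1: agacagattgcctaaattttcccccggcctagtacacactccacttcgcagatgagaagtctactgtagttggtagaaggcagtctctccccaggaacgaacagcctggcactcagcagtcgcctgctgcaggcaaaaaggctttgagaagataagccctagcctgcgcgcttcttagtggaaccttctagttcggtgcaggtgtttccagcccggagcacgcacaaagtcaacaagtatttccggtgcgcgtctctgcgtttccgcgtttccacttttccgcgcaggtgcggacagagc

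A match is a description of letters, not a bound site, and no binding was measured. The 6 genes with the element had P2 to P0 ratios on both sides of 1, from 0.851 for Psme4 to 1.11 for Psmb6.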

How the data were processed

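Total RNA of 3 libraries was sequenced, and the authors deposited 1 table of FPKM values for 50043 gene IDs. Alignment to mm9 with TopHat2 2.0.9 and Bowtie2 2.0.6 is named, per the submitters' processing notes. Counting program, annotation and strand, not given in the sources used here, leave uncertain those members that share exon bases with another gene (11 of 45). Whole reads were recovered from FPKM, library totals and gene lengths: 26287 of 26291 IDs above 0 (99.98%) were whole within a relative tolerance of 1e-09, and 82.2% of lengths lay within 1 base of the mean GENCODE M21 transcript length. Recovered reads summed to between 100.5% and 100.51% of the totals. At these depths 3 reads on a 2 kb gene are worth 0.0646, 0.0831 and 0.0669 FPKM.

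Differences were taken on log2(FPKM + 1) with a floor of FPKM 1. Ratios carry exact conditional 95% intervals (Clopper-Pearson) on recovered reads. Steps were tested on simulated data. Members and lists were chosen with earlier results of these data known. The named genes are the highest and lowest member of each subgroup, the 6 largest differences in each direction from P0 to P2 and 3 in each from P1 to P2, the catalytic subunits, ATPases, activators, inhibitor and chaperones, members under 1 FPKM, Psmb8 to Psmb10, Psmc3ip, and listed genes past the 25% threshold between P0 and P2. Further genes were named after their values were seen. A list of ubiquitin-related genes is not reported here. Alternatives were 3 scalings, 26S or 20S genes alone, another pseudocount (0.1) and a floor of 5 FPKM or no floor. Python 3.11.15, numpy 2.4.6, pandas 2.3.3, scipy 1.17.1 and matplotlib 3.10.9 were used.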

Additional observations from a re-analysis of the deposited data

How the results depend on the processing

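No paired analysis was possible because each passage has 1 library. Of 51 planned values recomputed under other settings, 34 moved by less than counting error or by at most 1.5 times. The counts of members differing by 2-fold are left out of this tally, being 0 in every setting. The median difference of P2 against P0 turned from 0.03 to -0.02 with median-of-ratios scaling and was 0.04 when rescaled to 1000000 per library, 0.02 with quantile normalization and 0.05 over 26S genes. For P1 against P0 the median went from -0.02 to -0.07 with median-of-ratios scaling. For P2 against P1 it went from 0.05 to 0.04 with quantile normalization and 0.06 over 26S genes. Over 26S genes alone the counts past the 25% threshold were 1 for P2 against P1 and 0 for both comparisons with P0, where all members gave 3 for P2 against P1, 3 for P1 against P0 and 1 for P2 against P0, since the other calls lay outside the particle. With quantile normalization the P2 against P0 count was 2, with Psmg3 lower. The coefficient of variation of 26S levels at P0, P1 and P2 was 48.7%, 53.3% and 55.0% without a floor, and 49.9%, 54.6% and 55.1% over the 20S core. Chosen after seeing the data were 3 further settings. Without members sharing exon bases with other genes the medians were -0.04 (P1 against P0) and 0.06 (P2 against P1). Per principal transcript length the coefficients were 48.3%, 53.2% and 54.6%, and without Psma8 and Psmb11 40.4%, 45.5% and 47.4%. Psmg3, with 81 to 105 reads, and Psma8, with 192 to 343, limit what depth allows. Where no cause is given, the cause was not tested.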
